A study of Mus musculus with 18 samples.

Results

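Transcripts of 10 secreted peptide precursors were followed in cell lines of mouse malignant peripheral nerve sheath tumors (MPNSTs), cancers that arise along nerves. The genes were *Cck*, *Npy*, *Tac1*, *Penk*, *Pdyn*, *Sst*, *Vgf*, *Nts*, *Grp* and *Adm*, picked by symbol from a table of 35275 genes with measured values of these data known. Their differences between genotypes are therefore given as a description, with no p-value. The study sequenced RNA of 6 untreated lines, 3 of either genotype and all from different tumors, in triplicate cultures that gave 18 libraries. The tumors arose in wild-type 129 Sv/Jae mice after an adenovirus carrying Cas9 and guide RNAs was injected into the sciatic nerve. The guides targeted *Nf1* and p53 (*Trp53*) in the *Nf1*/*p53* dKO lines, given as Nf1-/-;p53-/-, and *Nf1* and *Cdkn2a* in the *Nf1*/*Cdkn2a* dKO lines, given as Nf1-/-;Cdkn2a-/-, so that both groups lack *Nf1*. Cas9 was driven by a CMV promoter, which is not restricted to Schwann cells, and each line stands for a single tumor. The ages of the mice are not given in the sources used here, and no normal nerve was analysed here.

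Neuropeptides are made as long precursors that enter the secretory pathway, where convertases cut them at paired basic residues. Carboxypeptidase E then trims the ends, and many products, cholecystokinin among them, are amidated by the enzyme PAM before release from granules. The peptides act on G protein-coupled receptors on the same or neighboring cells. In peripheral nerve they are best known from sensory and autonomic neurons, while cholecystokinin itself is known as a gut hormone and an abundant peptide of the brain.

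Libraries held 19560535 to 28312207 counts, and the counts of the 3 cultures of a line were summed because they share a tumor. Levels are in CPM, counts scaled to library sizes that edgeR's TMM had adjusted, and 3 counts were worth 0.0386 to 0.0481 CPM in a line. The labels call the cells mesenchymal, and *Vim* and *Col1a1*, 2 of the 12 mesenchymal markers listed, were at 4727 to 10207 and 302 to 4173 CPM. Of the 12, 5 had a higher and 7 a lower fitted level in *Nf1*/*Cdkn2a* dKO. Among the lower, *Lum* was at no more than 0.0433 CPM in those lines, against 1.41 to 65.4 CPM in *Nf1*/*p53* dKO. *Dcn* was at 3.40 to 6.59 against 104 to 934 CPM. Of the targeted genes, *Trp53* was at 94.1, 67.5 and 58.7 CPM in *Nf1*/*p53* dKO lines 1, 2 and 3 and at 247, 246 and 185 CPM in *Nf1*/*Cdkn2a* dKO lines 1, 2 and 3 (log2 fold change 1.62, SE 0.23, adjusted p = 0.0361, quasi-likelihood test of edgeR, adjusted by Benjamini-Hochberg, n = 3 lines per genotype). Its call was kept in 1 of the 6 fits that each omitted a line, the one without *Nf1*/*p53* dKO line 1, and was lost in the other 5, with adjusted p up to 0.124, at log2 fold changes of 1.49 to 1.84. The levels of *Nf1* and *Cdkn2a* overlapped between genotypes, at adjusted p = 0.328 and 0.830 in the same edgeR test. *Nf1* was targeted in both genotypes, so comparing them cannot show its edit, and it was at 12.7 to 70.0 CPM over the 6 lines. *Cdkn2a* was at 169, 392 and 285 CPM in *Nf1*/*Cdkn2a* dKO lines 1, 2 and 3 and at 42.9 to 363 CPM in *Nf1*/*p53* dKO. Whole-gene counts thus did not show the *Cdkn2a* edit.

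Of the 10 precursors, 5 had enough counts to enter the fit (*Cck*, *Tac1*, *Adm*, *Penk* and *Vgf*). In *Cck*, *Tac1* and *Adm* every *Nf1*/*Cdkn2a* dKO line lay above every *Nf1*/*p53* dKO line, a pattern found in that direction for 14.8% of the 15207 genes tested and in either direction for 31.4%. *Cck* was the one member within the 1.80% of tested genes past the adjusted threshold of 0.05 (0.638% past it and higher in *Nf1*/*Cdkn2a* dKO), a place it did not hold in the fits without *Nf1*/*p53* dKO line 2 or without *Nf1*/*Cdkn2a* dKO line 1, and nothing is read from these counts, since the genes were chosen with the values known. In all results on whole cultures, fewer cells that make a transcript and less transcript per cell cannot be told apart.

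**Figure D1:**
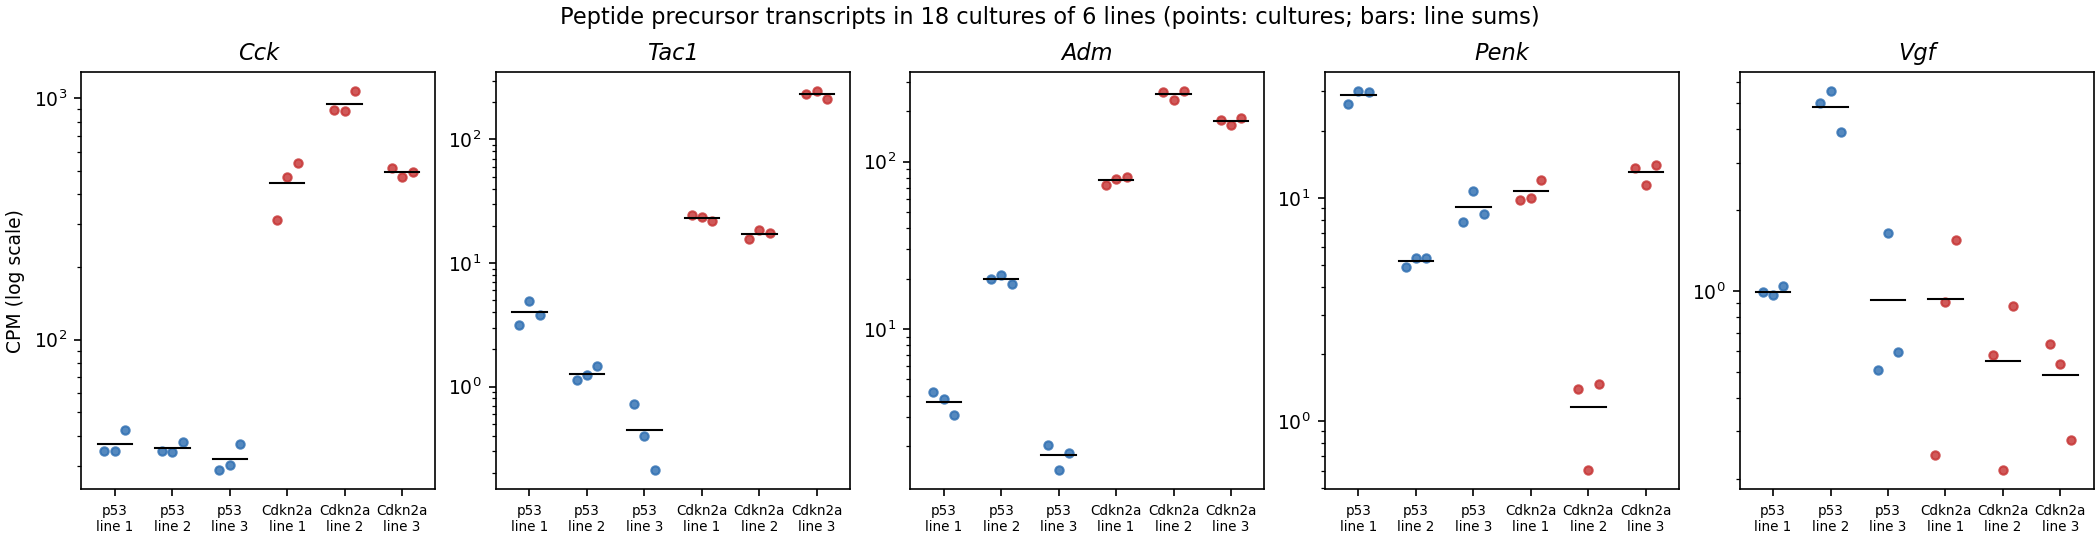
Levels in CPM on a log axis (vertical) of the 5 precursors that entered the fit, for each of 18 cultures (points, blue for Nf1/p53 dKO and red for Nf1/Cdkn2a dKO), arranged by line along the horizontal axis. Black bars mark the level of the summed counts of a line. Cck sits between 28.8 and 42.1 CPM in the 9 Nf1/p53 dKO cultures and between 311 and 1068 CPM in the 9 Nf1/Cdkn2a dKO cultures, while Penk and Vgf overlap.

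*Cck* encodes the precursor of cholecystokinin and lies on the minus strand at chr9:121489824-121495694 of GRCm38 (ENSMUSG00000032532). It was at 36.8, 35.4 and 31.9 CPM in *Nf1*/*p53* dKO lines 1, 2 and 3 and at 444, 944 and 496 CPM in *Nf1*/*Cdkn2a* dKO lines 1, 2 and 3. The group means were 34.7 ± 2.53 and 628 ± 275 CPM (SD, n = 3 lines). The genotypes did not overlap in any culture, and the lowest *Nf1*/*Cdkn2a* dKO line was 12.1-fold above the highest *Nf1*/*p53* dKO line. The fitted log2 fold change of *Nf1*/*Cdkn2a* dKO over *Nf1*/*p53* dKO was 4.18 (SE 0.34), or 18.1-fold, and its range was 3.77 to 4.38 over the fits that each omitted a line. In size this difference was at the 98.1st percentile of all genes tested.

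The *Nf1*/*p53* dKO lines were alike in *Cck*, with 1.15-fold between the highest and the lowest, and line accounted for 35.8% of the variance among their cultures, against a median of 84.3% over all genes tested. The *Nf1*/*Cdkn2a* dKO lines spread over 2.12-fold, and line accounted for 84.9% of the variance, against a median of 60.9%. Most of the spread within a line was in *Nf1*/*Cdkn2a* dKO line 1, whose cultures were at 311, 470 and 539 CPM. The other two lines of that genotype ranged from 887 to 1068 CPM and from 473 to 515 CPM.

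In counts per kilobase of exon, the scale that allows levels of different genes to be compared, *Cck* was among the most abundant transcripts of the *Nf1*/*Cdkn2a* dKO lines. It ranked 117, 39 and 103 of 15119 genes in lines 1, 2 and 3 of that genotype, and 1782, 1875 and 2116 in lines 1, 2 and 3 of *Nf1*/*p53* dKO. It was thus a transcript of the upper part of the range in every line, at the 86.0th percentile or above.

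The promoter of *Cck* is shown because *Cck* was the most abundant of these transcripts per kilobase in every line. The sequences are RefSeq's, in GRCm38.p6, as windows from 250 bases before to 50 bases after the annotated start, and windows of 7 of the 10 genes were used. The 250 bases before the start (chr9:121495695-121495944, minus strand), 5′ to 3′ with the hexamer CACGTG and the cyclic AMP response element core CGTCA in capitals, read as follows.
Cck: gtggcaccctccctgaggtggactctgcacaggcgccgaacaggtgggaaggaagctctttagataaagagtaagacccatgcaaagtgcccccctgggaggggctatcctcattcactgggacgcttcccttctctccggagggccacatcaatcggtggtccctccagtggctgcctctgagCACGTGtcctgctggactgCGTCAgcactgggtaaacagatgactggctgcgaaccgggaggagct
The first base of CGTCA lay 47 bases before the start. CACGTG, which holds the hypoxia response core ACGTG on both strands in overlap, began 66 bases before it. Counting either strand, CGTCA was in 20.8%, ACGTG in 19.6% and CACGTG in 7.15% of all 32851 promoter windows, so that each alone is a common match.

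*Tac1* encodes the precursor of substance P and neurokinin A, peptides of pain fibers, and lies at chr6:7554879-7565834 on the plus strand of GRCm38. Its window held the same pair of matches, which are shown as short sites with the core in capitals, the first spanning chr6:7554993-7555013 and the second chr6:7555010-7555030 on the plus strand. Both sites lie before the RefSeq start but inside the GENCODE gene, whose start is annotated farther upstream.
Tac1 site 1: agagtgtcACGTGgctctaca
Tac1 site 2: tacaggctCGTCAcgcctgag
The starts of CACGTG and CGTCA were 19 bases apart in *Cck* and 18 bases apart in *Tac1*. A pair within 20 bases was found in 0.752% of all promoter windows, a search chosen after the matches in these genes were seen.

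For comparison, *Sst*, the somatostatin gene, is the textbook gene with a full cyclic AMP response element, and its site is printed with its 8 core bases in capitals (chr16:23890877-23890900, minus strand). It lies before the RefSeq start and inside the GENCODE gene.
Sst: tccttggcTGACGTCAgagagaga
The full element TGACGTCA, which holds CGTCA on both strands in overlap, was in 1.79% of all windows, and it was not in the windows of *Cck*, *Tac1* or *Adm*. The AP-1 motif TGANTCA, searched on both strands and found in 7.81% of all windows, was found among these genes only in the window of *Nts*.

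*Tac1* was at 4.03, 1.27 and 0.443 CPM in *Nf1*/*p53* dKO lines 1, 2 and 3 and at 23.2, 17.1 and 231 CPM in *Nf1*/*Cdkn2a* dKO lines 1, 2 and 3. *Nf1*/*Cdkn2a* dKO line 3 stood apart in all of its cultures, which were at 211 to 246 CPM. The means were 1.92 ± 1.88 and 90.6 ± 122 CPM (SD, n = 3 lines), with a fitted log2 fold change of 5.56 (SE 1.40). Without *Nf1*/*Cdkn2a* dKO line 3 that difference was 3.40, and without *Nf1*/*p53* dKO line 1 it was 6.72. Line accounted for 91.3% of the variance among cultures in *Nf1*/*p53* dKO and 99.7% in *Nf1*/*Cdkn2a* dKO. The cultures were farthest apart in *Nf1*/*p53* dKO line 3, which held 32 counts, at 0.211 to 0.722 CPM.

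*Adm* encodes adrenomedullin, a vasodilator peptide known to be induced by low oxygen and made by many cell types outside the nervous system. The gene lies at chr7:110627661-110629820 on the plus strand of GRCm38. Its upstream window (chr7:110627407-110627656, plus strand) is shown for its hypoxia response cores, which it holds as CACGC, the reverse complement of GCGTG, in capitals.
Adm: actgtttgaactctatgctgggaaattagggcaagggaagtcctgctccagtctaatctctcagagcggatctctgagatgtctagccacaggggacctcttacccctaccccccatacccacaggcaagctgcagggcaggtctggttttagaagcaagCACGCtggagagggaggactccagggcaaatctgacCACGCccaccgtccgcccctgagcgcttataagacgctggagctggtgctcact
These matches began 90 and 54 bases before the start, and GCGTG on either strand was in 32.4% of all windows. No CACGTG was in the *Adm* window.

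The level of *Adm* was 3.67, 19.8 and 1.76 CPM in *Nf1*/*p53* dKO lines 1, 2 and 3 and 77.7, 254 and 176 CPM in *Nf1*/*Cdkn2a* dKO lines 1, 2 and 3. *Nf1*/*p53* dKO line 2 was the highest of its group in each of its cultures, yet the lowest *Nf1*/*Cdkn2a* dKO line was still 3.92-fold above it. The means were 8.42 ± 9.92 and 169 ± 88.4 CPM (SD, n = 3 lines). The fitted log2 fold change was 4.33 (SE 1.02), and it was 5.97 without *Nf1*/*p53* dKO line 2. An antisense gene, Gm28863, overlaps *Adm*, and since the strand setting of the counting is not given in the sources used here, reads of the pair cannot be told apart. It held 65 counts in all, against 35513 for *Adm*.

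*Penk* encodes proenkephalin, the source of the opioid enkephalins (chr4:4133531-4138819, minus strand). It was at 28.8, 5.20 and 9.06 CPM in *Nf1*/*p53* dKO lines 1, 2 and 3 and at 10.7, 1.15 and 13.1 CPM in *Nf1*/*Cdkn2a* dKO lines 1, 2 and 3. The genotypes overlapped, and the lines of each were far apart, with 5.53-fold between the highest and lowest *Nf1*/*p53* dKO line and 11.4-fold between those of *Nf1*/*Cdkn2a* dKO. The fitted log2 fold change was -0.79 (SE 0.95), and its sign turned to 0.22 without *Nf1*/*p53* dKO line 1. *Nf1*/*Cdkn2a* dKO line 2, the highest line for *Cck* and *Adm*, was the lowest for *Penk*, at 0.604 to 1.47 CPM in its cultures. The processed transcript A830012C17Rik overlaps *Penk* on the opposite strand and held 8 counts in all.

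*Vgf* encodes a granin-like precursor induced by nerve growth factor (chr5:137026392-137033351, plus strand). It was at 0.992, 4.82 and 0.927 CPM in *Nf1*/*p53* dKO lines 1, 2 and 3 and at 0.930, 0.548 and 0.485 CPM in *Nf1*/*Cdkn2a* dKO lines 1, 2 and 3. Only *Nf1*/*p53* dKO line 2 stood above the range of the others, and *Nf1*/*p53* dKO line 3 and *Nf1*/*Cdkn2a* dKO line 1 overlapped. The fitted log2 fold change was -1.78 (SE 0.76), or -0.54 without *Nf1*/*p53* dKO line 2. Counts per culture were as low as 5, and in *Nf1*/*Cdkn2a* dKO line 1 they were 5, 17 and 36.

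The other five precursors were at or near 0 at a depth of at least 19560535 counts per culture. *Pdyn*, the prodynorphin gene (chr2:129686565-129699844), had no count in any of 18 cultures, which allows up to 0.160 CPM in the shallowest culture if a count of 0 stands for up to 3 counts, by counting error only. *Npy*, encoding the sympathetic transmitter neuropeptide Y (chr6:49822710-49829507), had 3 counts in 2 cultures. *Sst*, whose product inhibits hormone release (chr16:23889573-23890958), had 4 counts in 1 culture. *Nts*, the neurotensin gene (chr10:102481756-102490486), had 6 counts in 3 cultures, and *Grp*, encoding the bombesin-like gastrin-releasing peptide (chr18:65872820-65886596), had 13 counts in 5 cultures. No difference between the genotypes was detectable in these 5 genes at this depth. The antisense gene AC152076.4 overlaps *Grp* and was not counted in the table.

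Within each genotype the order of the precursors per kilobase was similar at the top and differed below. In *Nf1*/*p53* dKO, *Cck* led at 26.6 ± 1.94 CPM per kb (mean ± SD, n = 3 lines), above *Penk* at 8.79 ± 7.75, *Adm* at 5.20 ± 6.13, *Vgf* at 0.756 ± 0.750 and *Tac1* at 0.564 ± 0.553. The lines of *Penk* overlapped with those of *Adm*, and those of *Adm* with *Vgf* and *Tac1*, so only *Cck* stood clear of the others in every line. In *Nf1*/*Cdkn2a* dKO, *Cck* was at 481 ± 210 CPM per kb, *Adm* at 105 ± 54.6, *Tac1* at 26.6 ± 35.9, *Penk* at 5.10 ± 3.87 and *Vgf* at 0.220 ± 0.081. Here the lines of *Cck* stood clear of those of *Adm*, while *Adm* and *Tac1* overlapped, as did *Tac1* and *Penk*.

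**Figure D2:**
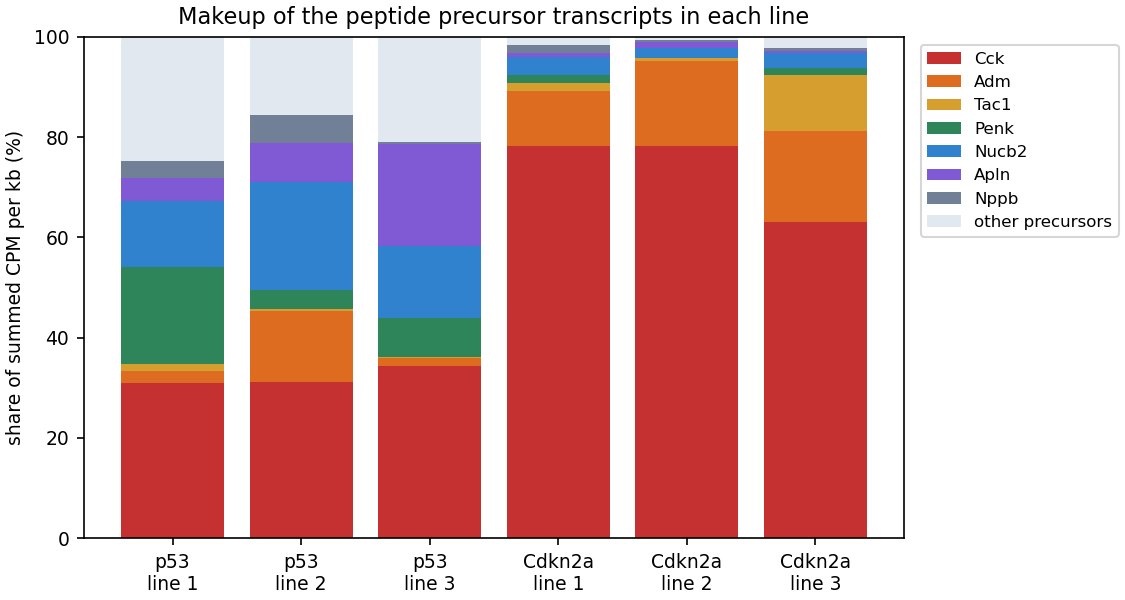
Share in percent (vertical axis) of the summed CPM per kb of all peptide precursor transcripts listed, for each of the 6 lines (horizontal axis), with precursors stacked by color. Cck makes up 30.9 to 34.4% in the Nf1/p53 dKO lines and 63.1 to 78.2% in the Nf1/Cdkn2a dKO lines.

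With 58 other precursor genes found in the table added, *Cck* made up 30.9, 31.2 and 34.4% of all precursor transcript per kilobase in *Nf1*/*p53* dKO lines 1, 2 and 3, and 78.2, 78.2 and 63.1% in *Nf1*/*Cdkn2a* dKO lines 1, 2 and 3. *Adm* held at least 11.0% in the *Nf1*/*Cdkn2a* dKO lines and 1.53 to 14.1% in the *Nf1*/*p53* dKO lines, so that the ranges overlapped. *Tac1* reached 11.3% in *Nf1*/*Cdkn2a* dKO line 3 and was at most 1.57% elsewhere. Together the 5 detected genes made up 92.4 to 95.8% in *Nf1*/*Cdkn2a* dKO and 44.3 to 54.4% in *Nf1*/*p53* dKO. Among the others, *Nucb2*, encoding the nesfatin precursor, held 13.2, 21.6 and 14.4% in *Nf1*/*p53* dKO lines 1, 2 and 3, and *Apln*, encoding apelin, held 4.59, 7.87 and 20.4%, as the plot of the makeup of precursor transcripts shows. In *Nf1*/*p53* dKO line 1, *Calcb* held 8.64% and *Adm2* 5.37%.

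Over the 6 lines, log2 CPM of *Cck* had a Pearson r of 0.92 with *Adm*, 0.83 with *Tac1*, -0.47 with *Penk* and -0.64 with *Vgf*. The points share genotype, library and depth, and the values are descriptions. Of 12277 genes compared, the 5 most like *Cck* were *Gm8355*, *Unc13a*, *Cep250*, *Urgcp* and *Ankrd13a*, at r of 0.994 to 0.996 over 6 lines. Their own ranges were narrow, as in *Unc13a*, a priming factor of vesicle release, at 1.74, 1.77 and 1.65 CPM in *Nf1*/*p53* dKO lines 1, 2 and 3 and 2.89, 3.23 and 3.10 CPM in *Nf1*/*Cdkn2a* dKO lines 1, 2 and 3. The likeness depended on the samples used, since only 1 of these 5 genes, *Urgcp*, was also among the 5 most like *Cck* over the 18 cultures.

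The nearest protein-coding genes of *Cck* on chromosome 9 are given beside it. *Trak1*, which encodes a mitochondrial transport adaptor and ends 14906 bp from *Cck* (chr9:121297502-121474918), was at 31.3, 34.0 and 69.0 CPM in *Nf1*/*p53* dKO lines 1, 2 and 3 and 42.9, 43.6 and 41.5 CPM in *Nf1*/*Cdkn2a* dKO lines 1, 2 and 3. Its log2 fold change was -0.07 (SE 0.31, adjusted p = 0.916, edgeR). *Lyzl4*, 82149 bp to the other side (chr9:121577843-121642096), had 4 counts in all.

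Genes that make, store, release, break down or sense these peptides were counted next, from 6 lists of 109 genes of which 83 were tested. One, *Egr1*, passed the edgeR threshold of an adjusted p of 0.05, or 1.20% of them, beside 1.80% of all genes in either direction and 1.16% in the direction of *Egr1*, lower in *Nf1*/*Cdkn2a* dKO. Of the 83, 51 were higher and 32 lower in *Nf1*/*Cdkn2a* dKO, and the lines of 32 did not overlap, or 38.6% against 31.4% of all genes. At an unadjusted p under 0.05 there were 28 of the 83 in edgeR, beside 22.4% of all genes. At an adjusted p under 0.05, DESeq2 on the 6 lines called 18 of the 89 genes of these lists it gave one for, beside 12.0% of all its genes, and limma-voom with line as a random effect called 20 of 70, beside 16.6%. These shares are the background of the counts by the same tests that follow for each list, and a list's share near them is no result about the list.

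**Figure D3:**
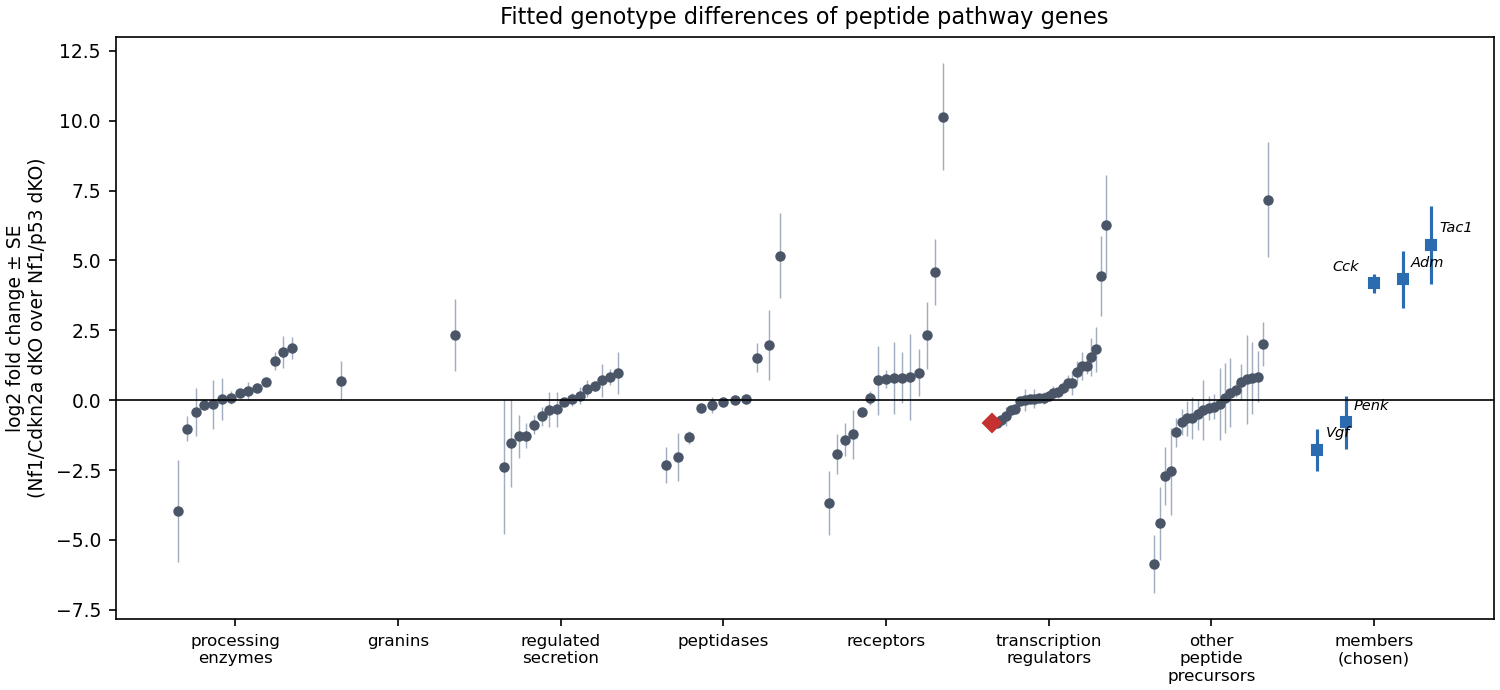
Fitted log2 fold change of Nf1/Cdkn2a dKO over Nf1/p53 dKO (vertical axis, points with bars of 1 SE) for tested genes of 7 lists and for the chosen precursors (blue squares), by list along the horizontal axis. The red diamond marks Egr1, the only gene of these lists past the adjusted threshold, at -0.83. Cck, Adm and Tac1 lie at 4.18, 4.33 and 5.56.

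Of the processing enzymes, 14 of 17 were tested and edgeR called 0, with 5 at an unadjusted p under 0.05, while DESeq2 and limma-voom each called 4. The median log2 fold change was 0.18, against -0.02 over all genes. *Cpe*, the carboxypeptidase that trims peptide ends, was at 579, 278 and 289 CPM in *Nf1*/*p53* dKO lines 1, 2 and 3 and at 928, 1215 and 864 CPM in *Nf1*/*Cdkn2a* dKO lines 1, 2 and 3. The lines did not overlap (log2 fold change 1.39, SE 0.33, adjusted p = 0.0818, edgeR), and edgeR called the gene without *Nf1*/*p53* dKO line 1.

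*Pam*, the amidating enzyme that cholecystokinin and adrenomedullin both need, was at 337, 231 and 68.5 CPM in *Nf1*/*p53* dKO lines 1, 2 and 3 and at 627, 530 and 949 CPM in *Nf1*/*Cdkn2a* dKO lines 1, 2 and 3. Its log2 fold change was 1.73 (SE 0.56, adjusted p = 0.144, edgeR). *Ctsl*, the protease cathepsin L, had the highest log2 fold change of the list, 1.86 (SE 0.40, adjusted p = 0.0653, edgeR), and *Pcsk6*, a convertase of the constitutive pathway, the lowest, -3.97 (SE 1.83, adjusted p = 0.261). *Pcsk6* was at 7.84 CPM in *Nf1*/*p53* dKO line 2 and at 0.581 CPM or less in the others, and without that line its value was -0.91. *Furin*, another convertase of the list, was at 145 to 152 CPM in *Nf1*/*p53* dKO and 211 to 255 CPM in *Nf1*/*Cdkn2a* dKO. *Pcsk7*, also a convertase, was at 26.4 to 31.3 and 34.4 to 37.4 CPM (adjusted p = 0.0598 for *Furin* and 0.326 for *Pcsk7*, edgeR).

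The convertases that neuroendocrine cells use in granules were nearly absent from the libraries. *Pcsk1*, encoding the convertase PC1/3, was at 0.0415 to 0.567 CPM, and *Pcsk2*, encoding PC2, was at no more than 0.0553 CPM in any line. The granin list, which holds the matrix proteins of granules, was as low. Its 4 genes summed to 0.180 to 0.651 CPM in *Nf1*/*p53* dKO lines and 0.128 to 1.31 CPM in *Nf1*/*Cdkn2a* dKO lines. Of its 2 tested genes edgeR called 0, with 0 at an unadjusted p under 0.05 and 0 by DESeq2 or limma-voom, at log2 fold changes of 2.34 (SE 1.28, adjusted p = 0.331) for *Scg2* and 0.69 (SE 0.69, adjusted p = 0.591) for *Chgb*.

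Of the regulated secretion genes, 16 of 18 were tested and edgeR called 0, with 4 at an unadjusted p under 0.05 and 1 called by each of DESeq2 and limma-voom. The median log2 fold change was -0.20. *Ptprn*, a granule membrane protein, had the highest value, 0.98 (SE 0.75, adjusted p = 0.481, edgeR), and *Cadps*, a granule priming factor, the lowest, -2.40 (SE 2.40, adjusted p = 0.592). *Cadps* was at 24.2 CPM in *Nf1*/*p53* dKO line 1 and at 4.27 CPM or less in the others, and without that line its sign turned, to 5.38.

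Of the peptidases that break down peptides outside or inside cells, 11 of 12 were tested. The edgeR test called 0, with 5 at an unadjusted p under 0.05, and DESeq2 called 5 and limma-voom 3. *Ece1*, which cleaves several neuropeptides in endosomes, was at 147, 142 and 129 CPM in *Nf1*/*p53* dKO lines 1, 2 and 3 and at 57.0, 38.6 and 71.2 CPM in *Nf1*/*Cdkn2a* dKO lines 1, 2 and 3, close to the threshold without passing it. *Dpp4*, which removes dipeptides from neuropeptide Y and others, had the highest value, 5.17 (SE 1.52, adjusted p = 0.118, edgeR), at 2.30 CPM in *Nf1*/*Cdkn2a* dKO line 3, 0.209 and 0.159 CPM in lines 1 and 2 of that genotype and at most 0.0566 CPM in *Nf1*/*p53* dKO. Without *Nf1*/*Cdkn2a* dKO line 3 its value was 2.91. *Anpep*, an aminopeptidase of enkephalins, had the lowest, -2.32 (SE 0.64, adjusted p = 0.105).

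**Figure D4:**
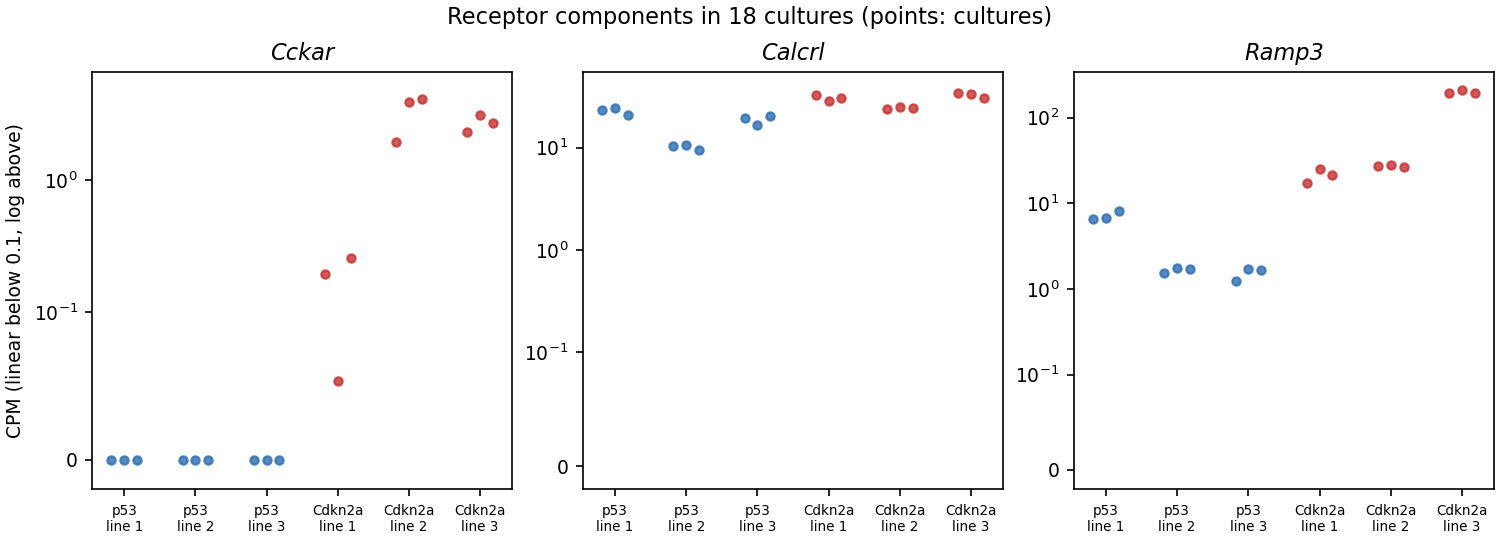
Levels in CPM (vertical axis, linear below 0.1 and log above) of Cckar, Calcrl and Ramp3 in each of 18 cultures (points, blue for Nf1/p53 dKO and red for Nf1/Cdkn2a dKO), arranged by line on the horizontal axis. Cckar has no count in the 9 Nf1/p53 dKO cultures and reaches 4.06 CPM in Nf1/Cdkn2a dKO.

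Cholecystokinin acts through *Cckar*, the receptor of gut and pancreas, and *Cckbr*, the brain and gastrin receptor. *Cckar* had 0 counts in all 9 *Nf1*/*p53* dKO cultures and 1 to 90 counts in each of the 9 *Nf1*/*Cdkn2a* dKO cultures. The *Nf1*/*Cdkn2a* dKO lines 1, 2 and 3 were at 0.176, 3.22 and 2.69 CPM. Their mean was at least 47.8-fold higher than the level that 3 counts in a line allow for *Nf1*/*p53* dKO, and the lowest line was at least 4.16-fold higher. The edgeR test gave an adjusted p of 0.0795, and the 6 edgeR fits that each omitted a line gave 0.112 to 0.184. DESeq2 on the 6 lines gave an adjusted p of 8.35e-08. The lowest adjusted p over the alternatives, 3.80e-15, came from DESeq2 with the 18 cultures as separate samples. That fit takes each culture as a replicate in place of the line, so nothing is read from its value. *Cckbr* had 6 counts in all, each in *Nf1*/*p53* dKO. The line with the lowest *Cckar* level of the genotype, *Nf1*/*Cdkn2a* dKO line 1, was also its lowest for *Cck*, and line 2 was the highest for both.

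Adrenomedullin binds the receptor encoded by *Calcrl* together with a partner protein, RAMP2 or RAMP3. *Calcrl* was at 22.9, 10.1 and 18.9 CPM in *Nf1*/*p53* dKO lines 1, 2 and 3 and at 30.7, 24.5 and 32.9 CPM in *Nf1*/*Cdkn2a* dKO lines 1, 2 and 3 (log2 fold change 0.76, SE 0.32, adjusted p = 0.222, edgeR). *Ramp3* was at 7.15, 1.67 and 1.54 CPM in *Nf1*/*p53* dKO lines 1, 2 and 3 and at 21.3, 27.2 and 200 CPM in *Nf1*/*Cdkn2a* dKO lines 1, 2 and 3. The lines did not overlap, and *Nf1*/*Cdkn2a* dKO line 3, the line with the most *Tac1*, stood apart (log2 fold change 4.58, SE 1.17, adjusted p = 0.0920, edgeR), with a value of 2.82 without it. *Ramp2* was at 0.203 to 1.81 CPM with no separation, and *Ackr3*, a scavenger receptor that also takes up adrenomedullin, was at 75.9 to 134 CPM in both genotypes.

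The receptors for the *Tac1* peptides were low. *Tacr1*, which binds substance P, had no count in any line. *Tacr2*, which binds neurokinin A, was at 0.183 to 0.824 CPM in *Nf1*/*p53* dKO and 0 to 0.0802 CPM in *Nf1*/*Cdkn2a* dKO, the lowest log2 fold change of the receptors at -3.67 (SE 1.14, adjusted p = 0.129, edgeR), and *Tacr3* was at 0 to 1.13 CPM. The opioid receptors for the *Penk* peptides, *Oprm1*, *Oprd1* and *Oprk1*, were at no more than 0.138 CPM in any line.

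Some receptors had counts where the ligand had almost none. *Npy1r*, a receptor of neuropeptide Y, was at 7.77, 2.79 and 0.097 CPM in *Nf1*/*p53* dKO lines 1, 2 and 3 and at 1.83, 4.40 and 12.3 CPM in *Nf1*/*Cdkn2a* dKO lines 1, 2 and 3, while *Npy* had 3 counts in all. *Sort1*, the sorting receptor that also binds neurotensin, was at 3.41 CPM or more in *Nf1*/*p53* dKO and 0.754 to 2.83 CPM in *Nf1*/*Cdkn2a* dKO (log2 fold change -1.41, SE 0.60, adjusted p = 0.228, edgeR). *Sstr2*, a somatostatin receptor, was low at 0.194 to 1.72 CPM, as was *Grpr*, the receptor of gastrin-releasing peptide, at 0 to 1.80 CPM. *Npy5r* was at 0 to 0.992 CPM. Of the other receptors of these ligands, *Npy2r*, *Npy4r*, *Sstr1*, *Sstr3*, *Sstr4*, *Sstr5* and *Ntsr1* were at no more than 0.335 CPM in any line. *Npy6r* and *Ntsr2* had no count. In all, 15 of 31 receptor genes were tested and edgeR called 0, with 5 at an unadjusted p under 0.05 and 3 called by each of DESeq2 and limma-voom. Their median log2 fold change was 0.76.

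Regulators known to act on peptide gene promoters made up the last list, with 25 of 27 tested, 18 higher and 7 lower. At an unadjusted p under 0.05 in edgeR there were 9. DESeq2 on the 6 lines called 5, 2 higher and 3 lower, and limma-voom called 9, 6 higher and 3 lower. The edgeR test called 1, lower in *Nf1*/*Cdkn2a* dKO. It was *Egr1*, an immediate early factor, at 87.2, 77.6 and 88.8 CPM in *Nf1*/*p53* dKO lines 1, 2 and 3 and at 52.3, 47.7 and 42.3 CPM in *Nf1*/*Cdkn2a* dKO lines 1, 2 and 3 (log2 fold change -0.83, SE 0.14, adjusted p = 0.0465, edgeR). The call was lost in each fit that omitted a line, with adjusted p up to 0.144 over the alternatives.

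Of the factors that bind the motifs searched in the promoters, some overlapped between the genotypes. *Creb1*, which binds cyclic AMP response elements, was at 35.7 to 43.6 CPM in *Nf1*/*p53* dKO and 41.9 to 44.2 CPM in *Nf1*/*Cdkn2a* dKO, and *Hif1a*, the oxygen-regulated factor, at 159 to 184 and 157 to 180 CPM (adjusted p = 0.557 and 0.936, edgeR). In others the lines did not overlap, without passing the edgeR threshold. *Epas1*, which encodes the HIF-2 alpha subunit, was at 8.89, 2.08 and 1.04 CPM in *Nf1*/*p53* dKO lines 1, 2 and 3 and at 12.8, 9.06 and 20.6 CPM in *Nf1*/*Cdkn2a* dKO lines 1, 2 and 3 (log2 fold change 1.82, SE 0.81, adjusted p = 0.247, edgeR). *Arnt*, the dimer partner of both, was at 79.8 to 93.7 CPM in *Nf1*/*p53* dKO and 47.9 to 58.6 CPM in *Nf1*/*Cdkn2a* dKO (log2 fold change -0.71, SE 0.14, adjusted p = 0.0608, edgeR), and DESeq2, limma-voom and the edgeR fit on raw totals called it. *Crem*, a relative of *Creb1*, was at 6.53 to 9.18 and 9.51 to 24.5 CPM (adjusted p = 0.182, edgeR). Of the AP-1 genes, *Fosl2* was at 114 to 184 CPM against at least 270 CPM, and *Jun* at 94.6 to 203 against 227 to 253 CPM (adjusted p = 0.0717 and 0.256, edgeR). *Fosl1* did not overlap either, and differed by 0.42 on the log2 scale (adjusted p = 0.190, edgeR). The other AP-1 genes listed overlapped, at log2 fold changes of 1.21 for *Fosb*, 0.002 for *Fos*, 0.055 for *Jund* and -0.58 for *Junb*. Lines without overlap, in either direction, were found for 31.4% of all genes tested.

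Of 22 other peptide precursors tested, edgeR called 0, with 5 at an unadjusted p under 0.05, 2 called by DESeq2 and 1 by limma-voom. Their median log2 fold change was -0.26. *Adm2*, the relative of *Adm* that encodes intermedin and uses the same receptors, had the opposite pattern, at 6.35, 4.46 and 3.13 CPM in *Nf1*/*p53* dKO lines 1, 2 and 3 and 0.112, 0 and 0.125 CPM in *Nf1*/*Cdkn2a* dKO lines 1, 2 and 3. Its log2 fold change was -5.86 (SE 1.03, adjusted p = 0.0502, edgeR). *Qrfp*, encoding a feeding peptide, was lower in every *Nf1*/*Cdkn2a* dKO line, at 0.0469 to 0.663 CPM against 1.74 to 15.9 CPM (adjusted p = 0.120). *Vip*, encoding vasoactive intestinal peptide, was at 8.24 CPM in *Nf1*/*Cdkn2a* dKO line 3 and at 0.216 CPM or less in the others.

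The other precursors named by level overlapped between the genotypes. They were *Nucb2*, at 23.8 to 44.6 CPM over the 6 lines, *Apln*, at 8.70 to 45.6 CPM, *Nppb*, encoding the natriuretic peptide BNP, at 0.194 to 5.33 CPM, *Edn1*, encoding endothelin 1, at 0.0415 to 4.77 CPM, and *Calcb*, encoding a calcitonin gene-related peptide, at 0.144 to 9.95 CPM.

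Markers of cells that could carry these peptides were summed beside the results. The 12 neuron markers summed to 178 to 424 CPM in *Nf1*/*p53* dKO and 151 to 353 CPM in *Nf1*/*Cdkn2a* dKO, and edgeR called 0 of 8 tested, with 2 at an unadjusted p under 0.05, 2 called by DESeq2 and 1 by limma-voom. The sum came mainly from *Nefl* at 7.16 to 114 CPM, *Nefm* at 25.8 to 108 CPM, *Stmn2* at 31.2 to 97.1 CPM, *Gap43* at 4.65 to 59.6 CPM, *Uchl1* at 5.65 to 49.6 CPM and *Tubb3* at 11.5 to 35.8 CPM over the 6 lines. Other neuron genes were near 0, with *Rbfox3* at no more than 0.172 CPM, *Elavl4* at no more than 0.109 CPM and *Syp* at no more than 0.322 CPM in any line. Of the 8 tested, 3 had a higher and 5 a lower fitted level in *Nf1*/*Cdkn2a* dKO. The 2 at an unadjusted p under 0.05 in edgeR were *Uchl1* and *Prph*, at log2 fold changes of -1.96 and -2.38. Their lines did not overlap, a pattern of 16.6% of all genes in that direction. The 12 Schwann cell markers summed to 31.2 to 148 and 17.4 to 49.2 CPM, with *Sox10* at 0 to 0.099 CPM, and edgeR called 0 of 10, with 4 at an unadjusted p under 0.05, 3 called by DESeq2 and 0 by limma-voom. All 10 tested Schwann cell markers had a lower fitted level in *Nf1*/*Cdkn2a* dKO (median log2 fold change -2.39), and the lines of 1 of them did not overlap, beside 16.6% of all genes in that direction. The part of these markers in the results was not tested.

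The 10 endothelial markers summed to 2.97 to 6.93 CPM in *Nf1*/*p53* dKO and 12.9 to 28.6 CPM in *Nf1*/*Cdkn2a* dKO. Of 6 tested, *Esam* was called higher, at 6.35 to 24.6 CPM against 0.111 to 0.424 CPM, and *Tek* lower, at adjusted p of 0.0381 and 0.0465 in edgeR. The sum moved with *Cck* and *Adm* through *Esam* alone, since the other 9 summed to 2.86 to 6.57 CPM in *Nf1*/*p53* dKO and from 3.93 CPM up in *Nf1*/*Cdkn2a* dKO, with overlap. *Tek* and *Pecam1* had log2 fold changes of -3.23 and -1.29. *Pecam1* and *Cdh5* were at no more than 0.595 and 1.69 CPM in any line. The 9 leukocyte markers in the table summed to 14.1 to 26.1 and 18.6 to 36.2 CPM, and edgeR called 0 of 5, with 0 at an unadjusted p under 0.05 and 0 by DESeq2 or limma-voom. The 12 mesenchymal markers summed to 10059 to 23994 and 12083 to 19358 CPM, with 1 called, *Dcn*, lower in *Nf1*/*Cdkn2a* dKO (adjusted p = 0.0470, edgeR). The study describes nontransformed cells as lost while the lines were derived, and the part of *Esam* in the levels of *Cck* and *Adm* was not tested.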

How the data were processed

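RNA-seq counts of 18 mouse MPNST libraries were used. The authors deposited raw counts, whole numbers for each gene and library that had not been normalized. The submitters' processing notes name CASAVA, STAR 2.5, DESeq2 1.14.1, GRCm38 and mm10, and the counting tool and strand setting are not given in the sources used here. Column names gave genotype, line and culture.

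Since each line comes from 1 tumor, the counts of its 3 cultures were added up. Genes were kept with filterByExpr (minimum count 10, minimum total 15), leaving 15207 of 35275, scaled by TMM, and tested two-sided by quasi-likelihood in edgeR 4.0.16 with p-values adjusted by Benjamini-Hochberg (R 4.3.3, with limma 3.58.1 and DESeq2 1.42.0 for alternatives). This called 274 genes, 97 higher and 177 lower in *Nf1*/*Cdkn2a* dKO, with 3400 at an unadjusted p under 0.05. Standard errors are the log2 fold change over the root of F. Exon lengths and positions are from GENCODE M21 (GRCm38), which holds 34490 of the identifiers, and promoter windows from RefSeq. Plots used Python 3.11.15, numpy 2.4.6, pandas 2.3.3 and matplotlib 3.10.9. The edgeR fit of line sums was tested on simulated counts. Results of some genes in the lists were left out.

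The members and lists were chosen with earlier results of these data known. Named were all members, the targeted genes, the called genes (up to 3 each way) and the highest and lowest log2 fold change of each list, receptors of members by level, the 8 most abundant other precursors, the nearest protein-coding genes of *Cck* and the 5 genes most like it (Pearson r of log2 CPM with a prior count of 2, mean of at least 1 CPM). Other genes named were *Cpe*, *Pam*, *Furin*, *Pcsk1*, *Pcsk2*, *Pcsk7*, *Ece1*, *Creb1*, *Hif1a*, *Epas1*, *Arnt*, *Crem*, the AP-1 genes and the markers. They were chosen after their values were seen, for their known roles. Alternatives were other scalings, filters, tests, replicate units and blocks, and each line left out. The spread between cultures of a line exceeded counting error (chi-square per degree of freedom 3.57 to 29.2). Line numbers did not pair the samples (r of -0.0988, -0.133 and -0.0848), nor did culture numbers (median r 0.00156).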

Additional observations from a re-analysis of the deposited data

How the results depend on the processing

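With 3 lines per genotype, the count of 274 called genes depended on the replicate unit and on single lines. It was 282 with DESeq2's size factors, 320 with upper-quartile scaling, 411 with no filter and 226 with at least 10 counts in every line. Raw library totals gave 423, of which 20.3% were higher in *Nf1*/*Cdkn2a* dKO, against 35.4% with TMM (29.7% with upper-quartile scaling), and shifted the median log2 fold change of all genes from -0.02 to -0.16. DESeq2 on the lines gave 2060, limma-voom 2173, and fits of the 18 cultures as separate samples 6096 (edgeR) and 7186 (DESeq2). With the line number as a replicate block the count was 0 (2740 at an unadjusted p under 0.05), and with the culture number as a replicate block 5681. Leaving out a line gave 0 to 172, with 0 without *Nf1*/*Cdkn2a* dKO line 1 (2668 unadjusted), 2 without line 2 and 23 without line 3 of that genotype, and 172, 27 and 107 without *Nf1*/*p53* dKO lines 1, 2 and 3. The cause was not tested.

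Of the 83 pathway genes, 1 was called. The number tested differed between settings (104 with no filter, 66 with at least 10 counts, 70 in the edgeR and limma-voom fits of cultures, 89 and 97 in DESeq2 on lines and cultures). DESeq2's size factors, upper-quartile scaling, no filter and at least 10 counts each gave 2 (*Egr1* and *Ece1*), raw totals 4 (with *Arnt* and *Crtc2*), DESeq2 on the lines 18, limma-voom 20, the culture fits 38 and 50, the line replicate block 0 (25 unadjusted) and the culture replicate block 36. Leaving out a line gave 0 to 2, with 2, *Cpe* among them, without *Nf1*/*p53* dKO line 1 and 0 without any other line (19 to 24 unadjusted).

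*Cck* kept its direction in all 17 alternatives, at a log2 fold change of 3.77 to 4.38, and lost its edgeR call under the line replicate block and without *Nf1*/*p53* dKO line 2 or *Nf1*/*Cdkn2a* dKO line 1, and its ratio of means was 18.1 with TMM and 16.5 on raw totals. *Tac1* (3.40 to 6.72) and *Adm* (3.85 to 5.97) also kept theirs, and *Vgf* ranged from -2.15 to -0.54. Leaving out a line gave 1.56 to 3.51 for *Scg2*, 0.43 to 1.39 for *Chgb*, -5.49 to -2.72 for *Tacr2* and 2.82 to 5.69 for *Ramp3*. *Penk* ranged from -1.27 to 0.22, turning to 0.22 without *Nf1*/*p53* dKO line 1, and *Cadps* from -5.59 to 5.38, turning to 1.65 under the line replicate block and 5.38 without that line. Of the 5 genes most like *Cck*, 1 remained over the 18 cultures and 0 were among the 98 genes with a Spearman rho of 1 over the 6 lines.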
